A study of Mus musculus with 12 samples.

Results

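The fatty acid and triglyceride synthesis module is a set of 39 mouse genes that make fatty acids, build them into triglyceride, and store, release, import or export them. Its members were chosen by name from known lipogenesis, triglyceride and lipid droplet genes, and all 39 were found by Entrez identifier among the 27179 genes of the count table. Of these, 38 passed the filter on low counts and were tested, and Cidea was not.

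In the liver, carbon from sugar reaches cytosolic acetyl-CoA through ATP citrate lyase, is carboxylated by the acetyl-CoA carboxylases and is joined into palmitate by fatty acid synthase. Desaturases and elongases then modify the chain, and acyltransferases attach it to glycerol to give triglyceride, which is stored in droplets or exported in very-low-density lipoprotein. The transcription factors SREBP-1c (from Srebf1) and ChREBP (from Mlxipl) are known to switch these genes on after feeding, in response to insulin and to carbohydrate.

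RNA was measured in bulk in the livers of 12 male mice, 1 library per mouse, in 4 groups of 3. Mice ate chow diet (CD) or a low-protein diet (LPD), in which carbohydrate took the place of protein, from a week before hydrodynamic tail vein injection to the end. The injection carried Sleeping Beauty transposon plasmids for human c-MET and ΔN90-β-catenin, a β-catenin that lacks the N-terminal part needed for its degradation, or an empty vector (Vec). Each diet therefore has a Vec group and a group with both oncogenes, called the oncogene group here, and livers were taken when the oncogene mice on CD had reached their end point. The study reports a lower tumor burden on LPD at that time, so among oncogene livers diet and tumor burden cannot be told apart. The oncogenes enter only part of the hepatocytes, so an oncogene liver is a mixture of cells with and without them. The submitters' titles call the Vec mice WT, and their column names call the chow libraries HPD. The study's text gives the strain as C57/Bl3 in one place and as a 129/Ola and C57BL/6 mix in another, and mice were fasted before the harvest at a fixed time of day. The labels name hepatocytes as the cell type, whereas the RNA came from whole liver tissue, and fewer cells of a type and less RNA per cell cannot be told apart in such data.

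Library totals ranged from 19476209 to 31990267 counts. Levels are given as CPM, counts divided by a library total that was scaled by the trimmed mean of M values (TMM), always in the order of replicates 1, 2 and 3. The β-catenin targets Glul and Axin2 were higher in every oncogene liver than in every Vec liver, with Glul at 745 to 994 CPM in CD Vec, 6637 to 8611 in CD oncogene, 952 to 1211 in LPD Vec and 2490.1 to 4112 in LPD oncogene livers. Transcripts of the human c-MET plasmid are not in the table, since the alignment used the mouse genome. Hepatocyte markers (7 genes) summed to between 80914 and 136748 CPM in every library, with Alb the largest term. Of them, Serpina1c (-1.99), Apoa2 (-1.26) and Ttr (-0.87 on the log2 scale) were called lower and Trf (0.74) higher in oncogene than in Vec livers on CD. Among oncogene livers Serpina1c was called higher and Trf and Apoa1 lower on LPD, and 0 of the 7 were called for oncogene against Vec on LPD or by diet in Vec livers. The part of these genes' cells in the results on members was not tested. CD Vec replicate 2 lay apart from the other 11 libraries on the second principal component of all tested genes. A header line holds unexplained dataset numbers that fall into 3 runs. The first run has 2 libraries, CD oncogene 1 and 2. The third has 3, which are CD Vec 1 and 2 with LPD Vec 1, and the second has the other 7, so the run cannot be fully told apart from the comparison on CD, nor from the diet comparison among oncogene livers, whose 3 LPD libraries are all of the second run.

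Per length, Scd1 was the most abundant member in CD Vec livers, at 3434 CPM per kilobase of exon (group mean), followed by Thrsp at 906, Dgat2 at 291 and Fads2 at 203. Lpl (0.891) and Fabp4 (1.08) were near the bottom of that order. The levels of all 38 tested members are plotted relative to each member's mean. The features described in turn are a set of members lower in CD oncogene livers, a small set that was higher there, and a wide range among the CD Vec livers.

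**Figure D1:**
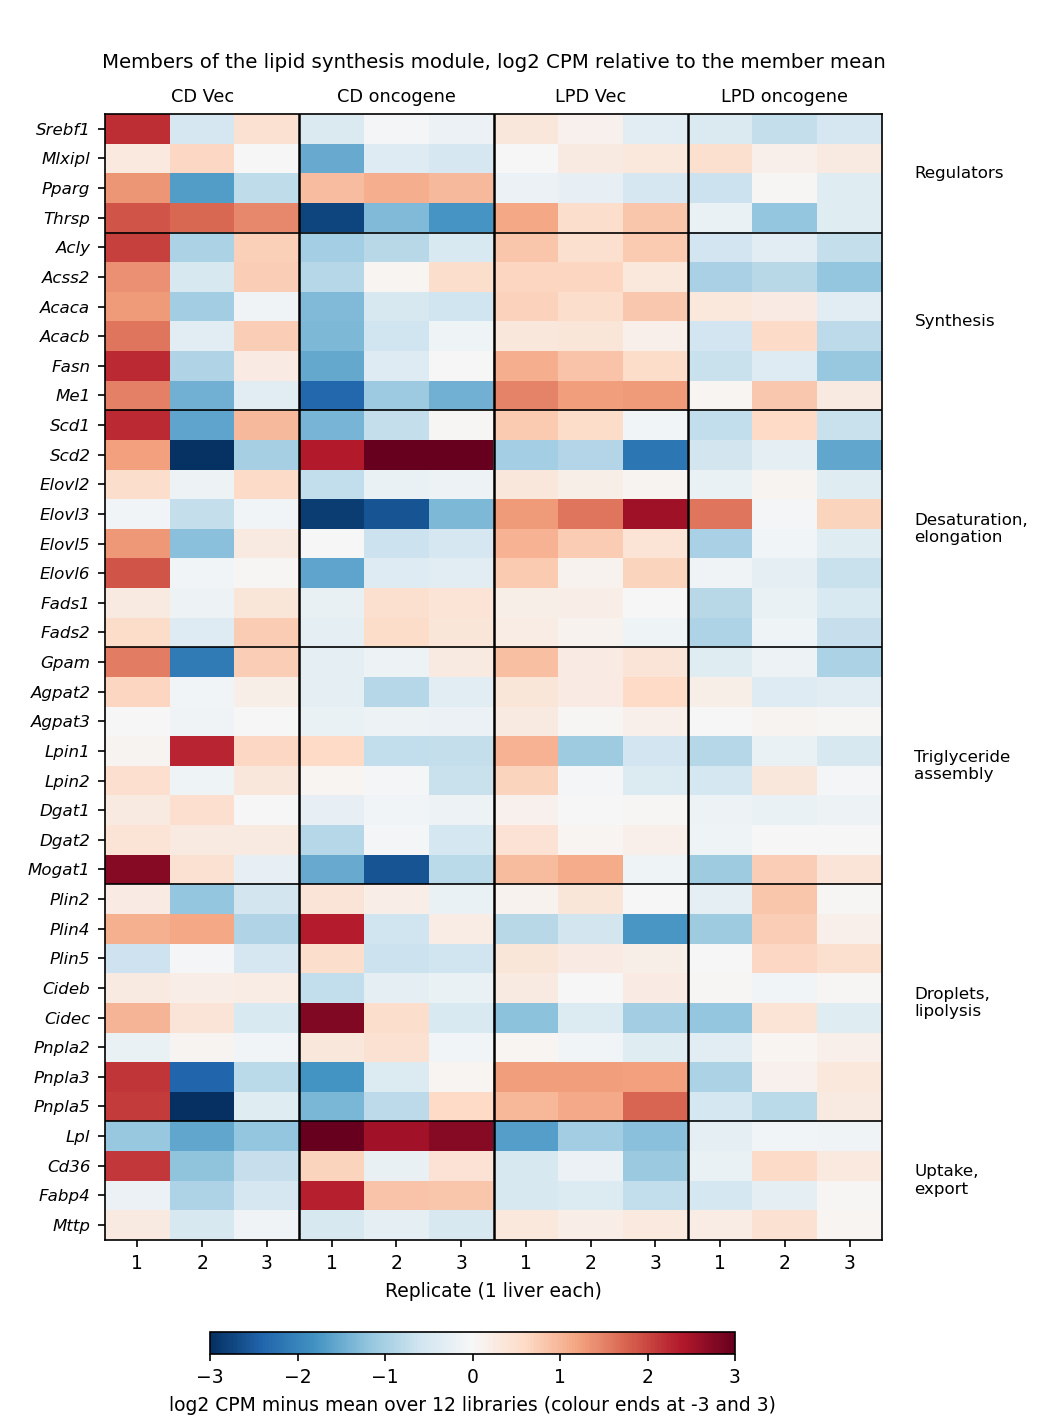
Heat map of the 38 tested members (rows, ordered by role) in the 12 libraries (columns, replicates 1 to 3 of each group). Colour gives log2 CPM minus the member's mean over the 12 libraries, red above and blue below, with colours ending at -3 and 3. Thrsp and Elovl3 are blue and Lpl and Scd2 are red in the CD oncogene livers, and CD Vec replicate 1 is red where replicate 2 is blue for many synthesis genes.

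Upstream sequence is shown for 3 members on which the results turn: Thrsp and Mlxipl, which were lower in CD oncogene livers, and Fasn, which had a wide range among the CD Vec livers. RefSeq (GRCm38.p6) gave a promoter for 30 of the 39 members, and the 250 bases before the start were searched on both strands for short motifs. The inverted CCAAT box (ATTGG), which nuclear factor Y binds, is in capitals in Fasn and Thrsp. The capitals in Mlxipl mark a match to a sterol regulatory element (TCACNCCAC), the kind of site SREBP binds. Each run ends at the base before an annotated start and is written 5′ to 3′ on the gene's strand. It belongs to the gene's first listed start whose 250 bases held the motif. For Fasn (gene at 120805958 to 120825166) and Mlxipl (135089890 to 135139768) that start lies inside the gene.
Fasn (chr11:120824548-120824667, minus strand): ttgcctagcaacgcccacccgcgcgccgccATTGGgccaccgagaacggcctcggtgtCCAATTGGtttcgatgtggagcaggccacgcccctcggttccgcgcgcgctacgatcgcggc
Thrsp (chr7:97417551-97417670, minus strand): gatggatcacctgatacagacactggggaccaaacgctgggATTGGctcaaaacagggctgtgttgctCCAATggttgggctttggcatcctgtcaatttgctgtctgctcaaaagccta
Mlxipl (chr5:135106741-135106890, plus strand): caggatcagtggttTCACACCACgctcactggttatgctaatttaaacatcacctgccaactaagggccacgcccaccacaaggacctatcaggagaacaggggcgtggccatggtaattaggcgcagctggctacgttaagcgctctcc

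The Fasn run holds ATTGG matches whose first bases lie at -90, -62 and -59, of which the last pair overlap on opposite strands, and Thrsp holds them at -79 and -52. ATTGG was present in 33.8% of all 32851 promoters and in 19 of the 42 promoters of the 30 members. TCACNCCAC was present in 1.05% of all promoters and, among members, in Mlxipl. The E-box CACGTG was found in 4 member promoters, those of Elovl5, Lpin2, Mlxipl and Pnpla5, against 6.02% of all promoters. CTTTGAT, a motif of the TCF/LEF partners of β-catenin, was in 3.21% of all promoters and in 0 of these. These are matches of letters and not measured binding sites.

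On chow, oncogene livers had less RNA than Vec livers for genes at several steps of lipogenesis and more for Lpl, Scd2 and Fabp4. By edgeR's quasi-likelihood test with Benjamini-Hochberg adjustment over all tested genes, 16 of 38 members passed an adjusted p of 0.05, 13 lower and 3 higher. The background was high: 35.4% of the 13947 genes tested were called, 18.7% as higher and 16.7% as lower; 42.1% of the members were. The median log2 fold change was -0.72 over the members and -0.01 over all genes. With scaling by total counts alone the median of all genes moved to 0.28, and 10 members were called, 6 lower and 4 higher, against 40.7% of all genes, with the calls of Acacb, Elovl2, Elovl6, Agpat2, Dgat1, Dgat2 and Cideb lost and Pnpla2 added as higher (the same median moved to 0.12 on LPD and -0.16 in the interaction). In CPM the oncogene livers lay wholly below the Vec livers for 11 members and wholly above for 3, against 20.4% and 22.2% of all genes. Log2 fold changes are given ± SE, with 3 livers in each group.

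Thrsp (Spot 14, a thyroid hormone-responsive protein that promotes lipogenesis, at chromosome 7, 97412933 to 97417550 in GRCm38, RefSeq) showed the clearest drop. It was at 2267, 2029 and 1656 CPM in the CD Vec livers, 91.7, 247 and 179.8 in the CD oncogene livers, 1371, 887 and 1084 in the LPD Vec livers and 533, 276 and 475 in the LPD oncogene livers. Every CD oncogene liver lay below every liver of the other groups, and the LPD oncogene livers lay below both Vec groups. The log2 fold change on CD was -3.52 ± 0.37, adjusted p = 5.09e-05, and the call held in all 21 alternatives tried. Mlxipl, the ChREBP gene, was at 365, 457 and 300.0 CPM in the CD Vec livers, 104, 226 and 208 in the CD oncogene livers, 296, 357 and 371 in the LPD Vec livers and 417, 329.6 and 357 in the LPD oncogene livers. Its CD oncogene values were below all other livers, with a log2 fold change of -1.06 ± 0.26, adjusted p = 0.00754. Srebf1 fell short of the threshold (-1.39 ± 0.51, adjusted p = 0.0557), with 1329.5, 200.2 and 393 CPM in CD Vec and 210.5, 272 and 252 in CD oncogene livers. CD Vec replicate 1 stood far above and replicate 2 just below the oncogene range.

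In the synthesis step itself, 3 of 6 members were called lower on CD. Acly, ATP citrate lyase, was at 1546, 190.4 and 606 CPM in the CD Vec livers, 182, 208 and 272 in the CD oncogene livers, 665, 519 and 641 in the LPD Vec livers and 247, 294 and 227 in the LPD oncogene livers, with a log2 fold change of -1.82 ± 0.54, adjusted p = 0.0212. Among the CD Vec livers only replicate 2 lay within the range of the CD oncogene livers. Me1, malic enzyme, which supplies NADPH, was at 805, 104 and 225 CPM in the CD Vec livers, 55.2, 132 and 105 in the CD oncogene livers, 801, 671 and 686 in the LPD Vec livers and 296, 500.2 and 344 in the LPD oncogene livers, with a log2 fold change of -1.96 ± 0.60, adjusted p = 0.0257. CD Vec replicate 2 again lay within the oncogene range, and the LPD Vec livers were tight and high. Acacb, the mitochondrial acetyl-CoA carboxylase, was at 325, 85.2 and 177 CPM in the CD Vec livers, 41.5, 69.8 and 96.8 in the CD oncogene livers, 136, 136 and 118 in the LPD Vec livers and 71.6, 158 and 62.1 in the LPD oncogene livers. The CD groups met at CD Vec replicate 2, and the log2 fold change was -1.50 ± 0.48, adjusted p = 0.0316. Fasn (-1.60 ± 0.65, adjusted p = 0.0754) and Acaca (-1.12 ± 0.46, adjusted p = 0.0822), the cytosolic carboxylase, did not pass, and neither did Acss2, acetyl-CoA synthetase (-0.70 ± 0.41, adjusted p = 0.202).

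Among the 8 desaturases and elongases, Elovl3, Elovl6 and Elovl2 were called lower and Scd2 higher on CD. Elovl3, an elongase of saturated very long chains, was at 83.5, 53.7 and 83.3 CPM in the CD Vec livers, 12.3, 14.8 and 35 in the CD oncogene livers, 216, 269 and 511 in the LPD Vec livers and 268, 85.9 and 141 in the LPD oncogene livers. All CD oncogene livers were below all other livers, and its log2 fold change was -1.83 ± 0.50, adjusted p = 0.0153. Elovl6, which extends palmitate to stearate, was at 679, 174 and 189 CPM in the CD Vec livers, 61.5, 141 and 148 in the CD oncogene livers, 318, 201 and 295 in the LPD Vec livers and 172, 150 and 116 in the LPD oncogene livers, with a log2 fold change of -1.57 ± 0.50, adjusted p = 0.0307. Its CD groups did not overlap, but CD Vec replicates 2 and 3 were within 1.5-fold of the highest oncogene value. Elovl2, which extends polyunsaturated chains, was at 848, 531 and 885 CPM in the CD Vec livers, 356, 517 and 529 in the CD oncogene livers, 746, 668 and 627 in the LPD Vec livers and 511, 626 and 460.2 in the LPD oncogene livers. Its CD groups did not overlap, although CD Vec replicate 2 was close to the oncogene livers, and its log2 fold change was -0.69 ± 0.22, adjusted p = 0.027.

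Scd2, the stearoyl-CoA desaturase found mainly outside the adult liver (chromosome 19, 44293676 to 44306864), went the other way from Scd1. It was at 43, 2.33 and 9.16 CPM in the CD Vec livers, 95.8, 197 and 188 in the CD oncogene livers, 8.97, 9.88 and 4.05 in the LPD Vec livers and 12.5, 15.1 and 6.25 in the LPD oncogene livers. The CD oncogene livers were above all others, and the log2 fold change was 3.14 ± 0.81, adjusted p = 0.0113. Scd1, the main liver desaturase, was at 33886, 2419 and 14085 CPM in the CD Vec livers, 2711, 4346 and 7394 in the CD oncogene livers, 12413, 10540.3 and 6759 in the LPD Vec livers and 4319.8, 10918 and 4510.1 in the LPD oncogene livers. CD Vec spanned 14-fold, and the Scd1 fold change of -1.80 ± 0.74 did not pass (adjusted p = 0.0804). These paralogs are similar in sequence and how reads matching both were treated is not given in the sources used here, so Scd2 could hold some Scd1 reads. The part of shared reads in the Scd2 values was not tested. Among the CD Vec livers both were highest in replicate 1 and lowest in replicate 2, and in the CD oncogene livers both were lowest in replicate 1.

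**Figure D2:**
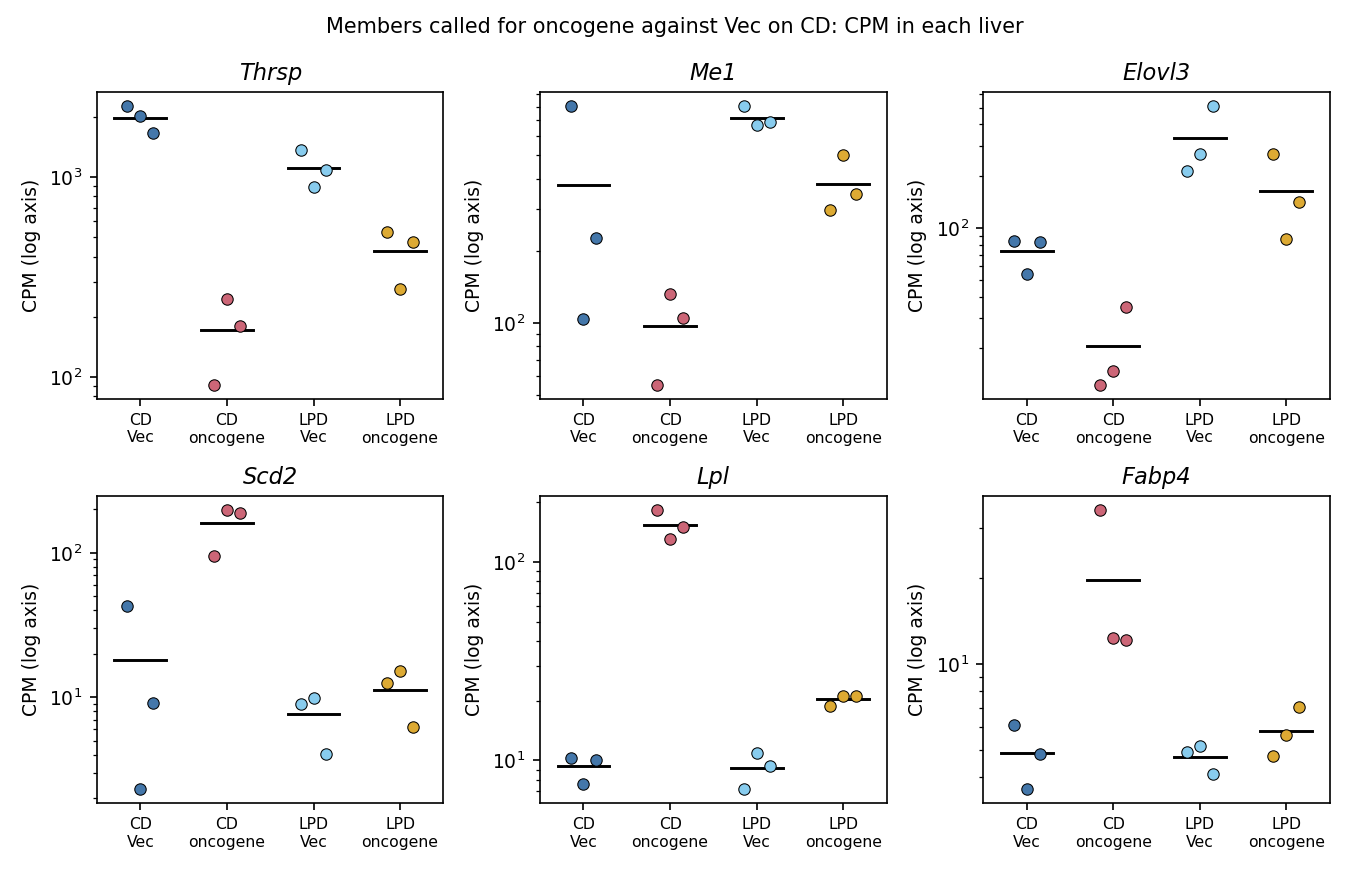
CPM in each liver (points, log axis) for Thrsp, Me1, Elovl3, Scd2, Lpl and Fabp4 in the 4 groups, with a bar at the mean of 3 livers. The CD oncogene points lie below all other groups for Thrsp and Elovl3 and above them for Scd2, Lpl and Fabp4, while Me1 overlaps with CD Vec.

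Of the 8 genes of triglyceride assembly, 4 were called lower on CD and 0 higher. Dgat2, the acyltransferase that completes triglyceride from newly made fatty acid, was at 950.4, 872 and 866 CPM in the CD Vec livers, 397, 698 and 499.9 in the CD oncogene livers, 976, 754 and 796 in the LPD Vec livers and 662, 711 and 713 in the LPD oncogene livers, with a log2 fold change of -0.75 ± 0.19, adjusted p = 0.00904. Its CD groups did not overlap, and the CD Vec livers were tight. Dgat1, the other enzyme of that step, was at 29.3, 35 and 24.9 CPM in the CD Vec livers, 20.5, 23.1 and 22.1 in the CD oncogene livers, 27, 24.8 and 25.2 in the LPD Vec livers and 22.2, 21.3 and 22 in the LPD oncogene livers. These groups were close but did not overlap on CD (-0.44 ± 0.13, adjusted p = 0.0179). Agpat2, which makes phosphatidic acid, was at 173, 106 and 127 CPM in the CD Vec livers, 93.2, 61.5 and 89.5 in the CD oncogene livers, 144, 131 and 169 in the LPD Vec livers and 125, 85.9 and 90 in the LPD oncogene livers, again without overlap on CD (-0.73 ± 0.22, adjusted p = 0.0215). Mogat1, which acylates monoacylglycerol, was at 8.2, 1.71 and 1.04 CPM in the CD Vec livers, 0.433, 0.204 and 0.711 in the CD oncogene livers, 2.4, 2.66 and 1.13 in the LPD Vec livers and 0.586, 2.07 and 1.62 in the LPD oncogene livers. The CD oncogene libraries held 15, 5 and 19 Mogat1 counts, so its log2 fold change of -3.003 ± 0.79, adjusted p = 0.0117 rests on few reads. It was below every CD Vec liver in all CD oncogene livers. With scaling by total counts alone the calls of Dgat2, Dgat1 and Agpat2 were lost, at -0.46 (adjusted p = 0.0701), -0.15 (adjusted p = 0.343) and -0.45 (adjusted p = 0.125), and that of Mogat1 stayed. Gpam, Agpat3, Lpin1 and Lpin2 were not called, with Gpam, the first acyltransferase, at -0.73 ± 0.62, adjusted p = 0.388.

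Few lipid droplet and lipolysis genes passed the test. Of 8 tested members, Cideb, which helps to lipidate lipoproteins, was called lower (-0.61 ± 0.14, adjusted p = 0.00576), at 42.1, 40.6 and 40.7 CPM in the CD Vec livers, 21, 29.3 and 30.9 in the CD oncogene livers, 42.5, 35.4 and 41.5 in the LPD Vec livers and 36.3, 33.4 and 35.9 in the LPD oncogene livers. The CD oncogene values lay below all others, but with scaling by total counts alone Cideb was at -0.32 (adjusted p = 0.0933) and not called, and Pnpla2 was called higher. Plin2, the main droplet coat protein of hepatocytes, was at 0.51 ± 0.35, adjusted p = 0.275, and Pnpla3, a droplet protein of the patatin family, at -1.33 ± 0.87, adjusted p = 0.262, with both uncalled. Plin4, Plin5, Cidec, Pnpla2 (adipose triglyceride lipase) and Pnpla5 were not called either. In Cidec and Plin4, CD oncogene replicate 1 stood out, at 35.2 CPM for Cidec against 7.42 and 3.78 in the other CD oncogene livers, and at 24.4 CPM for Plin4 against 3.18 and 5.58. Cidea, the untested member, had 6, 2 and 0 counts in CD Vec, 28, 8 and 4 in CD oncogene, 3, 3 and 2 in LPD Vec and 0, 0 and 1 in LPD oncogene libraries.

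Lpl, lipoprotein lipase, which frees fatty acids from circulating lipoproteins and is low in adult hepatocytes (chromosome 8, 68880555 to 68906932), had the largest rise of the module. It was at 10.3, 7.62 and 10.1 CPM in the CD Vec livers, 182, 130.1 and 150 in the CD oncogene livers, 7.2, 10.9 and 9.39 in the LPD Vec livers and 18.7, 21.2 and 21.1 in the LPD oncogene livers. The 4 groups fell into 3 levels: both Vec groups together, then LPD oncogene, then CD oncogene, with no overlap between the levels. Its log2 fold change on CD was 4.04 ± 0.19, adjusted p = 1.14e-06. Fabp4, a fatty acid carrier of adipocytes, macrophages and endothelium, was at 6.11, 3.64 and 4.84 CPM in the CD Vec livers, 34.7, 12.3 and 12.1 in the CD oncogene livers, 4.89, 5.15 and 4.1 in the LPD Vec livers and 4.74, 5.61 and 7.04 in the LPD oncogene livers. The CD oncogene livers were above all others, with a log2 fold change of 2.02 ± 0.38, adjusted p = 0.0018. Pparg, the adipogenic nuclear receptor, was at 28.9, 3.64 and 6.82 CPM in the CD Vec livers, 22.1, 24.8 and 22.6 in the CD oncogene livers, 10.3, 9.76 and 8.21 in the LPD Vec livers and 7.43, 11.8 and 8.96 in the LPD oncogene livers. Its CD oncogene livers were tight and above all LPD livers, but CD Vec replicate 1 was higher still, and the test gave 0.82 ± 0.55, adjusted p = 0.272. Cd36, a fatty acid translocase, was at 96.9, 9.66 and 13.8 CPM in the CD Vec livers, 35.6, 19.2 and 30.3 in the CD oncogene livers, 15.8, 19.7 and 10.3 in the LPD Vec livers and 19.4, 33.1 and 27.1 in the LPD oncogene livers, with CD Vec replicate 1 the highest of all 12, and Mttp, which loads lipid onto apolipoprotein B, was at -0.34 ± 0.18, adjusted p = 0.158. Neither passed, Cd36 at -0.50 ± 0.69, adjusted p = 0.603.

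Several cell types besides hepatocytes express Lpl, Fabp4, Cd36, Pparg and Plin4, so marker lists are given beside them. Adipocyte markers (7 genes) summed to at most 1.68 CPM in any CD oncogene library and 3.87 in CD Vec, where Adipoq was 0.509 CPM in replicate 1 and 0 in the others. In CD oncogene livers Adipoq was 0, 0 and 0.0374 CPM and Lep was 0 in all 3. The other markers were detected in CD oncogene replicate 1, with Cidea (also a member) at 0.809 and Cfd at 0.607 CPM. Plin1, Retn and Adig were each at 0.087 CPM there. The 8 macrophage markers summed to 111 to 248 CPM in CD Vec, 302 to 430.0 in CD oncogene, 168 to 215 in LPD Vec and 239.7 to 398 in LPD oncogene livers, and 4 of them were called higher on CD. The endothelial list (7 genes) had 0 called higher and 1 lower on CD, at 108 to 211 CPM in CD Vec and 118 to 187 in CD oncogene. Among the 7 stellate and fibroblast genes 4 were called higher and 2 lower, among 5 cholangiocyte genes 1 of 4 tested was called higher, and all 4 proliferation genes were called higher. The part of these cells in the rise of Lpl and Fabp4 was not tested.

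Many members had a wide range among the CD Vec livers. The SD of log2 CPM among the 3 CD Vec livers had a median of 0.84 over the 38 members and 0.30 over all tested genes. In LPD Vec livers the medians were 0.19 and 0.15, in CD oncogene livers 0.46 and 0.26, and in LPD oncogene livers 0.34 and 0.18. The highest and lowest CD Vec livers were over 4-fold apart in 16 members, against 2 in CD oncogene, 1 in LPD Vec and 0 in LPD oncogene livers. For 25 of the 38 members replicate 1 was highest and replicate 2 lowest.

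Fasn showed the pattern at 2901, 330.0 and 734 CPM in the CD Vec livers, 212, 474 and 622 in the CD oncogene livers, 1320.3, 1116 and 908 in the LPD Vec livers and 386, 469 and 279.7 in the LPD oncogene livers. CD Vec replicate 2 was at the level of the oncogene livers and replicate 1 was above the tight LPD Vec livers. Gpam was at 496, 38.9 and 284 CPM in the CD Vec livers, 138, 153 and 204 in the CD oncogene livers, 316, 201 and 222 in the LPD Vec livers and 133, 152 and 88.8 in the LPD oncogene livers, and replicate 2 of CD Vec was the lowest of all 12. Pnpla3 was at 96.3, 4.15 and 12.4 CPM in the CD Vec livers, 6.24, 16.4 and 22.5 in the CD oncogene livers, 51.9, 51.8 and 51 in the LPD Vec livers and 11.2, 23.8 and 27.2 in the LPD oncogene livers. There the LPD Vec livers were nearly equal, while CD Vec spanned 23.2-fold. Lpin1, a phosphatidate phosphatase and coactivator that is known to rise on fasting, ran the other way, at 187, 867 and 274 CPM in the CD Vec livers, 269.8, 107 and 109 in the CD oncogene livers, 367, 85.3 and 120 in the LPD Vec livers and 98.6, 154 and 128 in the LPD oncogene livers. CD Vec replicate 2 was the highest of all. Srebf1 (6.64-fold), Acly (8.12-fold), Me1 (7.74-fold), Scd2 (18.5-fold), Pnpla5 (33.7-fold), Cd36 (10-fold) and Pparg (7.94-fold) also spanned wide ranges in CD Vec, whereas Thrsp (1.37-fold), Dgat2 (1.1-fold) and Cideb (1.04-fold) did not. Of the clock genes, Dbp was at 152, 120 and 148 CPM and Per2 at 74.5, 133 and 62.5 in the CD Vec livers, with Per2 highest in replicate 2, and the part of the clock in this range was not tested. Of the 13 clock genes listed, 2 were called higher and 5 lower in oncogene than in Vec livers on CD. Their part in the member results on CD was not tested.

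**Figure D3:**
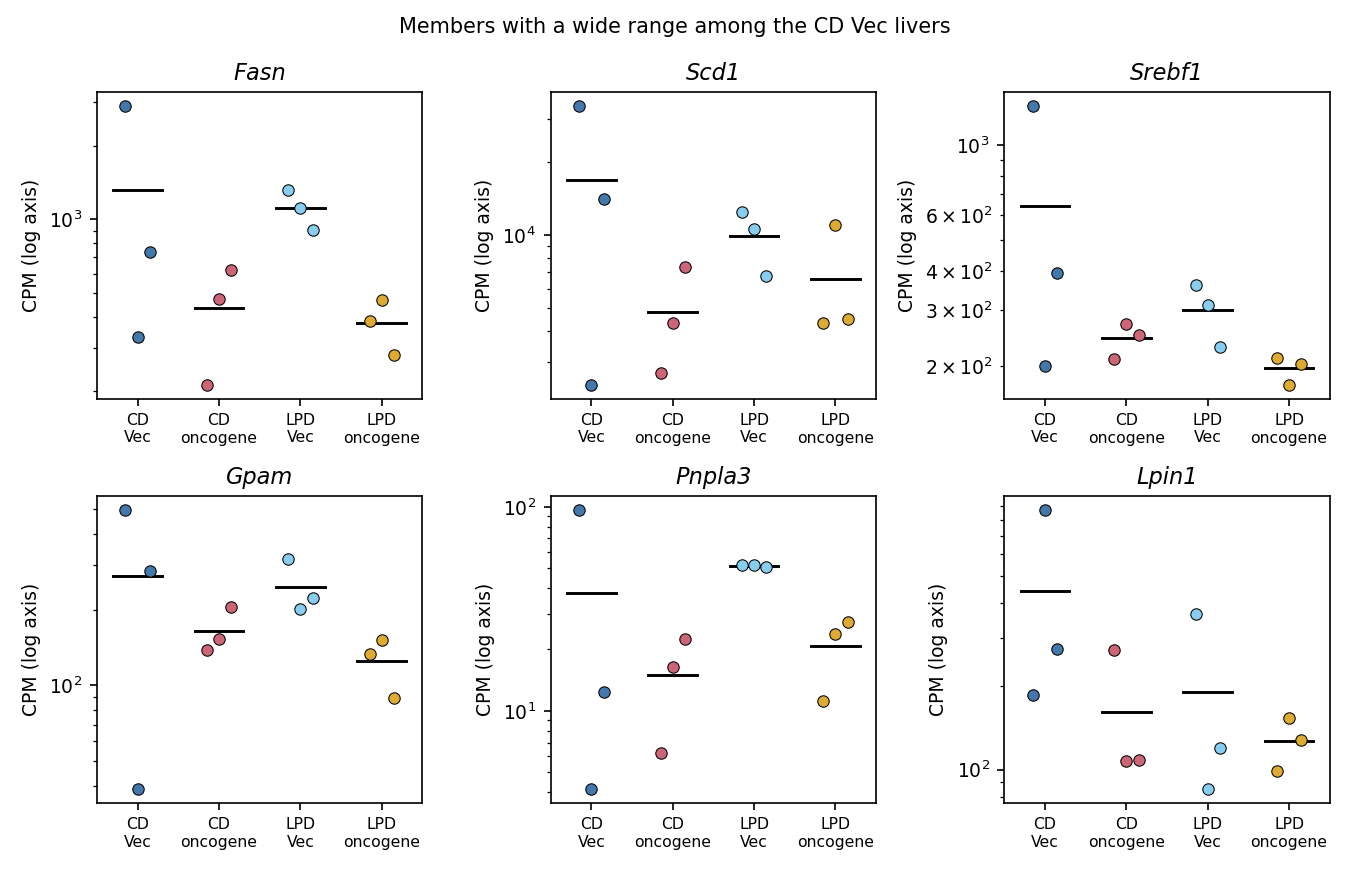
CPM in each liver (points, log axis) for Fasn, Scd1, Srebf1, Gpam, Pnpla3 and Lpin1 in the 4 groups, with a bar at the mean of 3 livers. The CD Vec points are the most spread in each panel, with replicate 1 (left point) highest in all but Lpin1, where replicate 2 (middle point) is highest.

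The calls on CD changed with the CD Vec libraries included. Leaving out CD Vec replicate 2 gave 24 called members, where 33.8% of all genes were called: all 16 stayed and 8 were added as lower, namely Fasn (-2.07), Scd1 (-2.32), Srebf1 (-1.82), Acaca (-1.52), Acss2 (-1.07), Elovl5 (-1.23), Gpam (-1.25) and Mttp (-0.51 on the log2 scale). Leaving out replicate 1 gave 12, with 30.8% of all genes: the calls of Acly, Acacb, Me1, Elovl2, Elovl6, Agpat2 and Mogat1 were lost, and Pparg (2.14), Cd36 (1.28) and Plin2 (0.96) were called higher. There Acly was at -0.86, Me1 at -0.76, Elovl6 at -0.63 and Mogat1 at -1.58, and Scd2, which stayed called, at 4.79. Over all fits that left out 1 library, Fasn ranged from -2.07 to -0.29, Scd1 from -2.32 to -0.78 and Srebf1 from -1.82 to -0.28. Acaca ranged from -1.52 to -0.26, Acss2 from -1.07 to -0.23 and Elovl5 from -1.23 to -0.06. Gpam ranged from -1.25 to 0.02 and Mttp from -0.51 to -0.13. Without CD oncogene replicate 1, 9 members and 30.4% of all genes were called, with Fabp4 at 1.33, and without replicate 3 Elovl3 was at -2.44. Among the libraries of run 2 alone, with 1 CD Vec and 1 CD oncogene liver whose spread is taken from the other groups, 6 were called, with 12.1% of all genes: Lpl, Fabp4 and Pparg higher and Thrsp, Acly and Dgat2 lower. With run as a term in the fit of all libraries, Lpl and Thrsp were called and the other 14 were not, and the share of all genes fell as well, to 6.78%. The 14 kept their direction with larger SEs. Scd2 was at 4.02 ± 1.27 and Dgat2 at -0.71 ± 0.31, as large or nearly as large as without the term, whereas Elovl6 was at -0.64 ± 0.79 and Mogat1 at -1.32 ± 1.23.

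On LPD, Lpl was the one member that oncogene changed by the test. It was 1 of 38, called higher, and 1.32% of all genes were called, 1.15% as higher and 0.165% as lower. The Lpl log2 fold change was 1.15 ± 0.18, adjusted p = 0.00824, a rise seen in all 3 livers, and it was lost without LPD Vec replicate 1 (1.0, adjusted p = 0.0517). The median over members was -0.47 against 0.01 over all genes. Acss2 (-1.53 ± 0.41, adjusted p = 0.116), Thrsp (-1.38 ± 0.34, adjusted p = 0.0782), Fasn (-1.56 ± 0.65, adjusted p = 0.382) and Acly (-1.25 ± 0.53, adjusted p = 0.4) did not pass in the fit of all groups.

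On LPD the oncogene livers lay wholly below the Vec livers in CPM for 18 of 38 members and wholly above for Lpl, against 11.6% and 13.5% of all genes. The 18 were Srebf1, Fasn, Acaca, Acly, Me1, Acss2, Thrsp, Elovl2, Elovl5, Elovl6, Fads1, Fads2, Gpam, Agpat2, Dgat1, Dgat2, Pnpla3 and Pnpla5. Acss2 was at 360.5, 99.8 and 231 CPM in the CD Vec livers, 77.3, 146 and 202 in the CD oncogene livers, 217, 217 and 175 in the LPD Vec livers and 70.8, 78.4 and 62.1 in the LPD oncogene livers. Elovl5 was at 1042, 859 and 677 CPM in LPD Vec and 257, 481 and 393 in LPD oncogene livers. Fitted with only the 6 LPD libraries, 8 of 38 members were called against 3.80% of all genes, with Lpl higher and 7 lower: Acss2 (-1.52, adjusted p = 0.000623), Acly (-1.25, 0.00308), Fasn (-1.56, 0.00853), Pnpla5 (-1.61, 0.0366), Me1 (-0.92, 0.0375), Thrsp (-1.38, 0.0385) and Elovl5 (-1.19, 0.0478). Run 2 alone, with 2 LPD Vec livers, gave 4 calls, which were Lpl, Acss2, Fasn and Acly, with 1.18% of all genes.

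**Figure D4:**
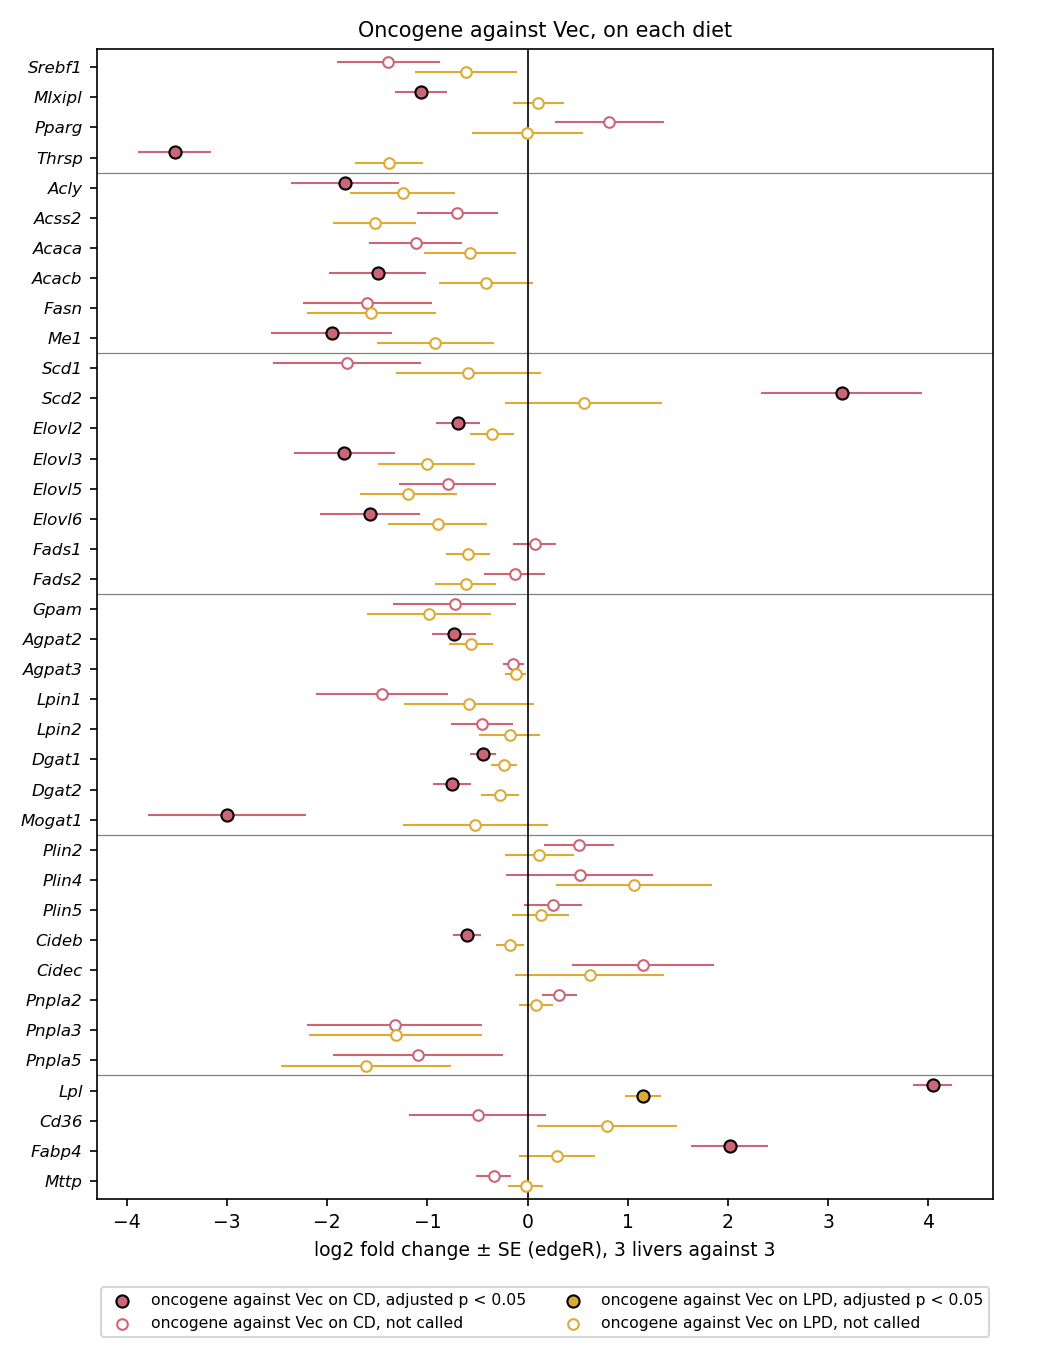
Log2 fold change ± SE (edgeR) of oncogene against Vec for the 38 tested members, on CD (red) and on LPD (yellow), 3 livers against 3, with filled points at an adjusted p under 0.05. On CD 16 points are filled, from Thrsp at -3.52 to Lpl at 4.04. On LPD Lpl alone is filled, at 1.15.

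Diet alone called 0 of 38 members in Vec livers, where 0.308% of all genes were called, 0.186% as higher and 0.122% as lower. At an unadjusted p under 0.05 there were 3 members, which were Elovl3, Thrsp and Plin5, against 9.87% of all genes, and DESeq2 called 1, Elovl3, with 2.43% of all genes. That gene was higher in all 3 LPD Vec livers than in any CD Vec liver, with a log2 fold change of 2.17 ± 0.50, adjusted p = 0.0936 in edgeR and an adjusted p of 0.000407 in DESeq2. Leaving out any 1 library again gave 0 calls in edgeR. Fasn was at 1322 ± 1383 CPM (mean ± SD, n = 3) in CD Vec and 1114 ± 206 in LPD Vec livers.

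Among oncogene livers, LPD came with more RNA of 5 members and less of 4 than CD, and with a lower tumor burden by the study's report. The β-catenin targets Glul (-1.11, adjusted p = 0.0042) and Axin2 (-1.20, adjusted p = 0.00366) were called lower on LPD by the same edgeR test. The 9 of 38 stand against 20% of all genes, with 8.66% called higher and 11.3% lower, so the share was near that of the genome. The higher members were Elovl3 (2.995 ± 0.52, adjusted p = 0.00329), Me1 (1.97 ± 0.60, adjusted p = 0.0399), Thrsp (1.31 ± 0.34, adjusted p = 0.0183), Mlxipl (1.04 ± 0.26, adjusted p = 0.0154) and Mttp (0.67 ± 0.18, adjusted p = 0.0208). Mttp was at 429, 255 and 333 CPM in the CD Vec livers, 258, 289 and 257 in the CD oncogene livers, 442, 412 and 439 in the LPD Vec livers and 417, 488 and 371 in the LPD oncogene livers, and each LPD oncogene liver exceeded each CD oncogene liver. For Mlxipl the LPD oncogene livers were in the range of the Vec livers, while for Thrsp they stayed below it. Acly, Fasn and Acss2 were not among them: Fasn was 386, 469 and 279.7 CPM on LPD against 212, 474 and 622 on CD, an overlapping range, and Acss2 was 62.1 to 78.4 CPM on LPD against 77.3 to 202 on CD, where the ranges touched and the test was not passed (-1.01 ± 0.41, adjusted p = 0.107).

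The lower members were Scd2 (-3.83 ± 0.83, adjusted p = 0.00941), Lpl (-2.92 ± 0.18, adjusted p = 1.23e-05), Fabp4 (-1.77 ± 0.38, adjusted p = 0.00756) and Fads1 (-0.73 ± 0.22, adjusted p = 0.0359). Scd2 and Fabp4 were in the range of the Vec livers or just above it in LPD oncogene livers, whereas Lpl was above it. Fads1, the delta-5 desaturase of polyunsaturated fatty acids, was at 874, 647 and 924 CPM in the CD Vec livers, 615, 1003 and 949 in the CD oncogene livers, 809, 823 and 709 in the LPD Vec livers and 405, 624 and 524 in the LPD oncogene livers. It was not called in the comparison on CD, and LPD oncogene replicate 2 was slightly above CD oncogene replicate 1. Fads2, the delta-6 desaturase, moved in the same direction short of the threshold (-0.80 ± 0.30, adjusted p = 0.0883), as did Pparg (-1.30 ± 0.55, adjusted p = 0.124). The 9 calls became 4 when replicate 1 of the LPD oncogene group was left out, which were Scd2, Elovl3, Lpl and Fabp4, with 12.6% of all genes. Without CD oncogene replicate 1 Fabp4 was at -1.07, and without CD oncogene replicate 3 Elovl3 was at 3.61, both still called. The Me1 call was kept in 8 of 21 alternatives and 3 of 12 that left out a library, and the Fads1 call in 11 and 5. With the dataset run as a term Lpl alone was called, with 4.43% of all genes. There Scd2 was at -4.06 (adjusted p = 0.0583), Elovl3 at 2.24 (0.088), Fabp4 at -1.06 (0.255) and Mlxipl at 0.82 (0.308). Run 2 alone, with 1 CD oncogene liver, gave 10 calls with 11.9% of all genes. Of the 9 calls, Elovl3 and Thrsp were lost there, and Acss2, Pparg and Plin5 were added. The macrophage, stellate and proliferation lists moved with this contrast as well: 4 of 8, 3 of 7 and 4 of 4 of their genes were called lower on LPD, and 2 stellate and fibroblast genes higher. The clock gene Npas2 was at 11.6, 0.612 and 4.75 CPM in CD oncogene livers and 0.782, 1.02 and 0.525 in LPD oncogene livers, and Dbp at 6.76, 130.1 and 23.8 and 93, 85.9 and 111, so the CD oncogene livers differed among themselves. The part of either in the diet difference was not tested.

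The other 21 members passed in none of the 5 comparisons, with Cidea untested. Those not described so far were, over the 12 livers, Fads2 at 270.1 to 867 CPM, Agpat3, an acyltransferase of phospholipid synthesis, at 241 to 336, Lpin2 at 185 to 467, Plin5, which couples droplets to mitochondria, at 29.1 to 70.3, and Pnpla2 at 74.6 to 130.4. As a ratio of highest to lowest CPM, Agpat3 had the narrowest range of the 38 tested members over the 12 livers. Plin2 ranged from 266 to 1051 CPM, with CD Vec replicate 2 the lowest and LPD oncogene replicate 2 the highest. Acaca was at 356, 70.7 and 136 CPM in the CD Vec livers, 58, 105 and 96.5 in the CD oncogene livers, 235, 212 and 258 in the LPD Vec livers and 183, 175 and 117 in the LPD oncogene livers. Its LPD Vec livers were all above the CD oncogene livers, and CD Vec straddled both. Pnpla5, a relative of Pnpla3, ranged from 0.171 to 5.76 CPM and Elovl5, which extends polyunsaturated chains, from 212 to 1242, both with the lowest value in CD Vec replicate 2 and the highest in CD Vec replicate 1.

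The difference between the oncogene effects on the 2 diets was tested as an interaction, the log2 fold change on LPD minus that on CD. It was called for Lpl (-2.89 ± 0.25, adjusted p = 0.000373) and Thrsp (2.14 ± 0.48, adjusted p = 0.0206), 2 of 38 members against 8.91% of all genes, 4.49% as higher and 4.42% as lower. Lpl rose by 4.04 on CD and 1.15 on LPD on the log2 scale, and Thrsp was at -3.52 and -1.38. Mlxipl (1.17 ± 0.36, adjusted p = 0.0661), Fabp4 (-1.72 ± 0.53, adjusted p = 0.0664), Scd2 (-2.58 ± 1.10, adjusted p = 0.167) and Mogat1 (2.48 ± 1.06, adjusted p = 0.165) did not pass. For the other members called on CD and not on LPD, an oncogene effect that differs by diet was thus not shown. The interaction was also called for Glul (-1.39, adjusted p = 0.0169) and Axin2 (-1.63, adjusted p = 0.0128). Diet and tumor burden cannot be told apart in it. The Lpl interaction held in all 20 alternatives and the Thrsp interaction in 14, and without CD Vec replicate 1 Scd2 and Pparg (-2.15, adjusted p = 0.00936) were called too, with 7.20% of all genes.

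A further 66 genes of the same pathways, listed by name, were counted in the same fit, and 63 were tested. On CD 13 were called higher and 23 lower in oncogene livers, 57.1% of those tested against 35.4% of all genes. On LPD 2 were called higher and 0 lower, 3.17% against 1.32%, and by diet in Vec livers 0, where 0.308% of all genes were called. In oncogene livers 15 were higher and 9 lower on LPD, 38.1% against 20%. In the interaction 7 were called higher and 5 lower, 19% against 8.91%. Elovl7, a very-long-chain fatty acid elongase, was at 0.509, 0.114 and 0.677 CPM in the CD Vec livers, 15.4, 44.1 and 28.4 in the CD oncogene livers, 0.336, 0.338 and 0.205 in the LPD Vec livers and 12.5, 11.4 and 7.43 in the LPD oncogene livers. It rose by 6.04 on CD (adjusted p = 2.17e-05) and by 5.12 on LPD (adjusted p = 0.00093), and the oncogene and Vec livers did not overlap. Mogat2, the intestinal relative of Mogat1, rose by 4.75 on CD and 2.74 on LPD, from 0.227 to 0.364 CPM in CD Vec to 4.56 to 11.3 in CD oncogene livers. Its call on LPD (adjusted p = 0.0147) was lost in 6 of 21 alternatives, among them without LPD Vec replicate 1, 2 or 3 (adjusted p = 0.0647, 0.0944 and 0.0734). Mogat1, by contrast, was lower on CD. Hilpda, a hypoxia-inducible inhibitor of adipose triglyceride lipase, was called on CD (2.64 ± 0.76, adjusted p = 0.0196) and by diet in oncogene livers (-2.60 ± 0.75, adjusted p = 0.032), but oncogene replicate 1 on CD held 47.6 CPM and the others 5.22 and 5.32. Without that library it was at 0.75 and -0.72, and neither was called.

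Fabp5, the epidermal relative of Fabp4, was at 10.1, 5.69 and 8.64 CPM in the CD Vec livers, 38.5, 32 and 20.9 in the CD oncogene livers, 4.32, 9.17 and 8.92 in the LPD Vec livers and 4.25, 5.79 and 4.81 in the LPD oncogene livers. The CD oncogene livers were above all others, as for Fabp4, and the LPD oncogene livers were within or just below the Vec range. Its log2 change by diet in oncogene livers was -2.62 ± 0.32, adjusted p = 0.000544, and its interaction -2.49 ± 0.44, adjusted p = 0.00901. Acsl3, an acyl-CoA synthetase of lipid droplets, was at 21.3, 10.2 and 26.1 CPM in the CD Vec livers, 30.9, 41.5 and 37.8 in the CD oncogene livers, 30.4, 32.4 and 29.9 in the LPD Vec livers and 13.3, 15.9 and 14.8 in the LPD oncogene livers, with an interaction of -2.004 ± 0.36, adjusted p = 0.00932. Of the CD oncogene livers 2 were above all others, and the LPD oncogene livers fell below the LPD Vec livers. Ces1d, a triglyceride hydrolase of hepatocytes, ran opposite, at 969, 944 and 732 CPM in the CD Vec livers, 116, 203 and 133 in the CD oncogene livers, 920.5, 821 and 527 in the LPD Vec livers and 245, 749 and 833 in the LPD oncogene livers. In LPD oncogene livers, 2 of 3 were in the range of the Vec livers, and the log2 change by diet was 2.02 ± 0.40, adjusted p = 0.00548 and the interaction 2.24 ± 0.55, adjusted p = 0.0305. The Ces1d interaction call was kept in 9 of 20 alternatives and 4 of the 12 that left out a library.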

How the data were processed

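Bulk RNA-seq of 12 mouse livers was analysed from a table of integer read counts per gene. The counts were deposited by the authors without normalization; per the labels and methods, reads were aligned to mm10 with HISAT2 and counted with featureCounts under Entrez identifiers. Versions and the strand setting are not given in the sources used here. The labels describe ribosomal RNA depletion and the methods mRNA selection.

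Libraries were grouped by the labels. Symbols (25275 of 27179 identifiers, 93.0%) and gene positions came from RefSeq, and exon lengths from GENCODE M21. All 4 groups entered 1 fit in edgeR 4.0.16 (R 4.3.3) with TMM factors (0.864 to 1.12), filterByExpr and the robust quasi-likelihood test. Of 27179 genes, 13947 were tested. The Benjamini-Hochberg adjustment ran over all of them, with calls at an adjusted p under 0.05. SE was derived from each log2 fold change and its F statistic. P-values rest on a spread between mice that is estimated per gene over all 4 groups of 3 and drawn toward that of other genes. They do not measure the spread of the compared groups alone, so the CD Vec range also enters the p-values on LPD. The biological coefficient of variation was 23.2%. The code was tested on simulated data.

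All 39 members are named, and those called in any comparison are given in every library. Companions are named where called in at least 2 comparisons, the 3 largest changes per comparison. Members and lists were chosen with earlier results of these data known. Alternatives were total counts, RLE factors, no filter, DESeq2 1.42.0, the 2 groups alone, a replicate block, terms for header runs and leaving out each library. The term and the subset for the 3 dataset runs were chosen after seeing the data.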

Additional observations from a re-analysis of the deposited data

Results flagged for a closer look

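The effect of oncogene against Vec differed between the diets, by the interaction term of edgeR's quasi-likelihood fit, for 2 members, Lpl (-2.89 ± 0.25, adjusted p = 0.000373) and Thrsp (2.14 ± 0.48, adjusted p = 0.0206). It also differed for 3 of the companion genes named above, Fabp5 (-2.49 ± 0.44, adjusted p = 0.00901), Acsl3 (-2.004 ± 0.36, adjusted p = 0.00932) and Ces1d (2.24 ± 0.55, adjusted p = 0.0305). A negative value means a lower log2 fold change on LPD than on CD, and diet cannot be told apart from tumor burden in this term. Over the alternatives tried the adjusted p ranged from 1.47e-21 to 0.0081 for Lpl, from 0.000284 to 0.2 for Thrsp, from 6.37e-06 to 0.122 for Fabp5, from 1.83e-05 to 0.0742 for Acsl3 and from 0.000922 to 0.38 for Ces1d.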

How the results depend on the processing

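Over the 28 calls of members in a comparison, 586 alternative values kept their direction in all cases, 460 kept the call and 126 lost it. Those of Lpl on CD, in the interaction and by diet with the oncogenes, and of Thrsp on CD, held in every alternative. Counts of called members changed by more than 1.5 times as follows, and the cause was not tested unless fewer libraries show it. For oncogene on CD (16 called), scaling by total counts gave 10, the 2 groups alone 9, the term for the 2 header runs 6, the term for 3 dataset runs 2, run 2 alone 6, and leaving out 1 library 9 to 24. For oncogene on LPD (1, 1.32%), DESeq2 gave 3 (2.89%), the 2 groups alone 8 (3.80%), run 2 alone 4 (1.18%), and leave-outs 0 to 2 (0.365 to 1.78%). By diet in Vec livers (0, 0.308%), DESeq2 gave 1 (2.43%) and leave-outs 0 to 0 (0.035 to 0.737%). By diet in oncogene livers (9), the dataset-run term gave 1 and leave-outs 4 to 12. For the interaction (2, 8.91%), DESeq2 gave 4 (13.8%), the dataset-run term 1 (0.609%) and leave-outs 1 to 4 (2.75 to 9.91%).

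Of the 22 uncalled fold changes on CD, 11 turned sign in at least 1 alternative: Gpam, Pnpla3 and Cd36, and also Fads1, Fads2, Agpat3, Pnpla2, Pnpla5, Plin4, Plin5 and Cidec. Leaving out 1 library gave Gpam -1.25 to 0.02, Pnpla3 -1.86 to 0.85 and Cd36 -0.97 to 1.28, each positive without CD Vec replicate 1. With the dataset-run term Pnpla3 was at 0.09 and Cd36 at 0.45, in run 2 alone at 0.85 and 1.13, and with the header-run term Cd36 was at 0.35. In the other comparisons, uncalled fold changes turned sign for 6 of 37 members for oncogene on LPD and 24 of 38 by diet in Vec livers. By diet in oncogene livers 16 of 29 turned, and in the interaction 19 of 36.

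Correlations of deviations from group means were -0.183 to 0.167 for same-numbered libraries and -0.221 to 0.245 for others. With 3 libraries per group this cannot show whether the numbers pair the mice. A replicate block gave 11 called members on CD (32.4% of all genes), 1 on LPD (1.08%) and 0 by diet in Vec livers (0.115%). It gave 7 by diet in oncogene livers (17.1%) and 2 in the interaction (5.82%). The fewest counts of a member in 1 library were 0 for Cidea, 3 for Pnpla5, 5 for Mogat1, 28 for Plin4, 41 for Scd2 and 46 for Cidec, so counting error is largest for these. Where 1 library is left in a group, its spread is assumed to be that of the others.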
